A study of Mus musculus with 2 samples.

Results

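The miR-7 genes and Mir671 make the microRNAs that bind the circular RNA Cdr1as in neurons. They were followed in small RNA libraries of hippocampal tissue from aged mice. The members were the 4 miRNA genes that GENCODE M21 names Mir7-1, Mir7-2, Mir7b and Mir671, of 2202 miRNA genes in the files, and all 4 were found. The study holds 2 libraries of total RNA, with a size limit of 30 nt. They come from female mice of the strain B6CASTF1/J, a first-generation hybrid of a B6 mother and a CAST father, aged 18 to 20 months. The label calls the tissue a layer of hippocampus and names no layer. The libraries are biological replicates 1 and 2 of 1 group, with no treatment, genotype or age to contrast. The tissue records carry different animal numbers but the same donor record, so the spread between the libraries may be partly technical.

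A microRNA is a short RNA that guides Argonaute proteins to matching messenger RNAs, mainly through its seed, bases 2 to 8. Cdr1as is a circular RNA of neurons, made from the strand opposite to the gene Cdr1 and known for its dense array of miR-7 binding sites. miR-671 pairs with Cdr1as over most of its length and directs its slicing. A further partner in this circuit is the long noncoding RNA Cyrano, which binds miR-7 with extensive pairing and promotes its destruction in mouse brain. In mice without Cdr1as, brain miR-7 is known to fall and miR-671 to rise. Neither Cdr1as nor Cyrano was measured here, since the deposited counts are of miRNA genes.

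The mature sequences show which members act through the same seed and which reads can be told apart. They are RefSeq sequences on GRCm38.p6, matched for 4 of 4 members, with the seed in capitals.
miR-7a-5p, from Mir7-1 and Mir7-2: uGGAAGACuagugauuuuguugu
miR-7b-5p, from Mir7b: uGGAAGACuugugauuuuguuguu
miR-671-5p, from Mir671: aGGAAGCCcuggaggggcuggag
miR-7a-1-3p, from Mir7-1: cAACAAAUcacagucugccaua
miR-7a-2-3p, from Mir7-2: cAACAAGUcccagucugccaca
miR-7b-3p, from Mir7b: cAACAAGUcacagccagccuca
miR-671-3p, from Mir671: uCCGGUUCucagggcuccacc
The 5p arms of the 3 miR-7 genes carry the same seed. Among 1738 mature entries of the RefSeq table, no other gene carries it. Counted from the 5′ end, miR-7a-5p and miR-7b-5p differ by the substitution A10U, outside the seed, and miR-7b-5p is 24 bases long against 23. The seed of miR-671-5p differs from that of miR-7 by A7C. Neither seed of Mir671 was found in another gene of the table. The 3p arm of Mir7-2 shares its seed with that of Mir7b, and the 3p arm of Mir7-1 has a seed of its own.

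Mir7-1 and Mir7-2 make an identical 5p arm, so a read of that arm fits both genes. The hairpins share a stretch of 24 bases, shown in capitals below with 5 bases of hairpin on either side. In Mir7b the capitals mark the bases that match the same stretch.
Mir7-1: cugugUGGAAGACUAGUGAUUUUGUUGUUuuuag
Mir7-2: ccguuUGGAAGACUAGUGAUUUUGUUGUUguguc
Mir7b: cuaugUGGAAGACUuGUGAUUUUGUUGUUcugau
The longest stretch that Mir7b shares with either of the other two is 14 bases. Multimapping reads have a total of their own in the files, and how the counter treated them is not given in the sources used here. A gene's count also sums both arms of its hairpin. The counts of Mir7-1 and Mir7-2 may therefore hold no miR-7a-5p, and their levels can be too low, whereas the mature arms of Mir7b and Mir671 occur in no other miRNA gene of the files. Both arms of Mir671 are also part of the Chpf2 transcripts that hold its hairpin, and the files have no line for Chpf2. How many multimapping reads were miR-7a-5p was not tested.

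**Figure D1:**
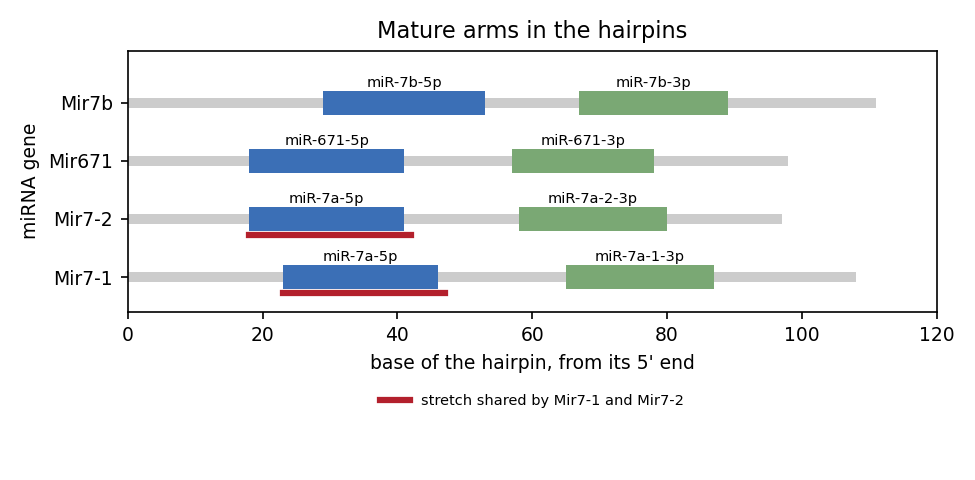
Hairpins of the 4 genes (grey) with their 5p arms (blue) and 3p arms (green); the x axis is the base counted from the 5′ end of the hairpin and each row is a gene. The red lines mark the 24 bases shared by Mir7-1 and Mir7-2, which cover the whole 23-base 5p arm of each.

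The members lie at 4 separate loci of the mm10 genome and differ in their surroundings. Mir7-1 (ENSMUSG00000065434.1) lies on the minus strand of chromosome 13 from 58392779 to 58392886. It sits in an intron of all 12 annotated transcripts of Hnrnpk that span it, a gene for an abundant RNA-binding protein. Mir671 (ENSMUSG00000076387.1) lies on the plus strand of chromosome 5 from 24592114 to 24592211. It overlaps a coding exon in both transcripts of Chpf2 that span it, a gene of chondroitin sulfate synthesis. It also overlaps a noncoding exon of Smarcd3, a chromatin remodelling subunit, on the other strand. Mir7-2 (ENSMUSG00000065609.1) lies on the plus strand of chromosome 7 from 78888277 to 78888373, in no other gene and 7480 bases from Aen. Mir7b (ENSMUSG00000065491.1) lies on the plus strand of chromosome 17 from 56242988 to 56243098, in no other gene, with the long noncoding gene AC026385.1 on the same strand 182 bases away.

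The target side of the circuit was examined as sequence only. The strand opposite to Cdr1 (chromosome X, 61184005 to 61185558) was searched for GTCTTCC, the letters complementary to the miR-7 seed. That strand held 79 matches in 1554 bases, and the Cdr1 strand itself held 0. Of the 78 distances between neighbouring matches, 72 were 18 bases. Cdr1as is longer than this interval, and its remainder was not analysed here. As a background, 1 transcript per gene was taken, and its first 1554 bases were searched on both strands. Of 23496 such windows, 14.2% held the letters on the transcript's own strand and 30.5% on either strand. After Cdr1, the highest number on 1 strand was 11, in Naf1. The letters GGCTTCC, complementary to the miR-671-5p seed, occurred 0 times on either strand of the Cdr1 interval, and in 33.8% of the windows on either strand. Neither set of letters overlaps the other. A match is a description of the sequence and not a measured site.

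**Figure D2:**
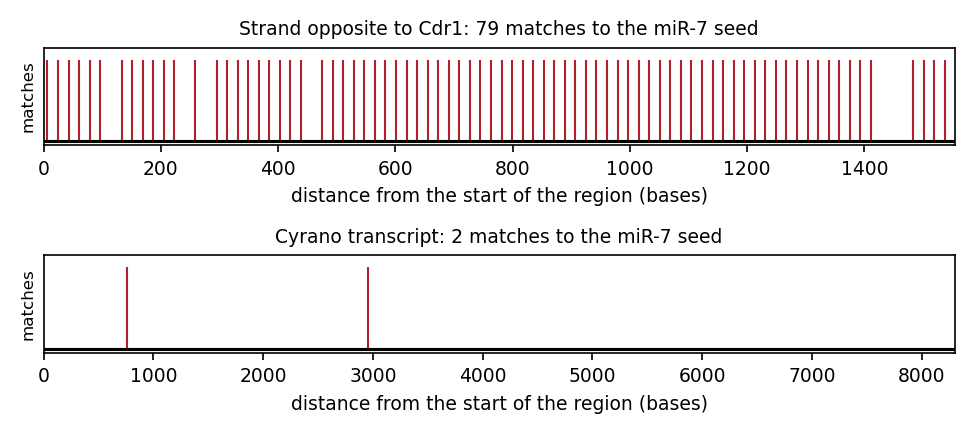
Matches to the miR-7 seed (red lines) along the strand opposite to Cdr1 and along the longest annotated Cyrano transcript; the x axis is the distance in bases from the start of each region. The upper region holds 79 matches in 1554 bases, mostly 18 bases apart, and the lower holds 2 in 8300 bases.

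The sites differ in how far pairing can run beyond the seed. Each is written on the strand that pairs with miR-7, with the letters complementary to the seed in capitals, and further capitals where a run of 8 or more bases matches the complement of miR-7a-5p bases 11 to 23.
Cdr1 interval, closest match, chrX:61184032-61184054, plus strand: tcctgaaaatccaccGTCTTCCa
Cdr1 interval, most repeated, chrX:61184356-61184378, plus strand: ttcccgaaaatccaaGTCTTCCc
Cyrano, site at base 762, chr2:119599945-119599971, plus strand: ttcaggttttttttttaatGTCTTCCa
Cyrano, site at base 2952, chr2:119602135-119602161, plus strand: gaACAACAAAATCACcaatGTCTTCCa
Coordinates are mm10. Of the 78 Cdr1-interval sites with a full 23-base window, the number of bases that matched the full complement of miR-7a-5p, without gaps, ran from 11 to 15, with a median of 13. The second sequence was the most frequent of 26 distinct windows and made up 19 of the 78. The longest further run in any site of the interval was 7 bases. Cyrano is 1700020I14Rik in GENCODE M21 and Oip5os1 in RefSeq. Its longest transcript of 8300 bases held 2 matches to the miR-7 seed and 1 to the miR-671-5p seed. The site at base 2952 has a further run of 13 bases that matches the complement of miR-7a-5p bases 11 to 23, while the site at base 762 has a run of 3. Bases 11 to 23 are the same in miR-7b-5p, so that run does not tell the miR-7 products apart.

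In this tissue Mir7b and Mir671 were the abundant members, at no less than 1102 CPM in either library, while the counted levels of Mir7-2 and Mir7-1 were no more than 183 CPM. Levels are in CPM, sense-strand counts scaled to 1000000 counts in miRNA genes, with exact 95% Poisson intervals for counting error only. Reads made by ligation and PCR are not independent molecules. Mir7b had 3724 counts in replicate 1, or 1651 CPM (1598 to 1705), and 9253 in replicate 2, or 2047 CPM (2005 to 2089). Its mean was 1849 ± 279.8 CPM (SD, n = 2), at rank 78 of all genes in replicate 1 and 63 in replicate 2. Mir7b is thus the miR-7 gene that these counts measure best, since neither of its arms is shared.

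Mir671 came close to Mir7b, with both of its arms counted together. How much of this is miR-671-5p, the arm that directs the slicing of Cdr1as, cannot be read from the counts. Mir671 had 2487 counts in replicate 1, or 1102 CPM (1059.6 to 1147), and 7976 in replicate 2, or 1764 CPM (1726 to 1803). Its mean was 1433 ± 468 CPM (SD, n = 2), at rank 97 in replicate 1 and 68 in replicate 2. Of the 4 members Mir671 had the widest spread between the libraries.

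Mir7-2 and Mir7-1 were the low members. Mir7-2 had 413 counts in replicate 1, or 183 CPM (166 to 202), and 644 in replicate 2, or 142 CPM (132 to 154), with a mean of 163 ± 28.7 CPM (SD, n = 2). Mir7-1 had 248 counts in replicate 1, or 109.9 CPM (96.7 to 125), and 392 in replicate 2, or 86.7 CPM (78.3 to 95.7), with a mean of 98.3 ± 16.4 CPM (SD, n = 2). In counted level Mir7-2, the copy outside any other gene, was above the Hnrnpk copy in both libraries. Reads of the 5p arm that they share may be missing from both, so the output of the 2 loci was not compared. All 4 levels were far above the limits of 1.33 CPM in replicate 1 and 0.664 in replicate 2 that a count of 0 would allow (3 counts).

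**Figure D3:**
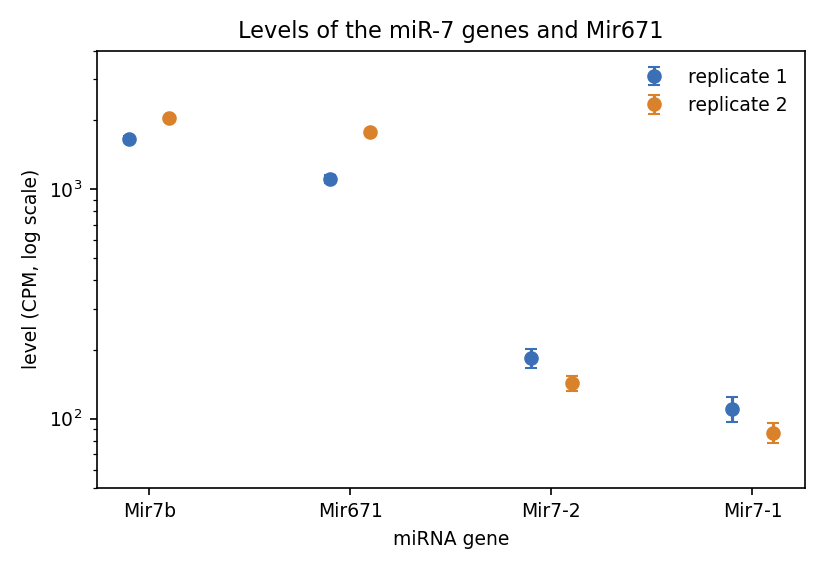
Level of each gene (x axis) in CPM on a log axis (y axis) in replicate 1 (blue) and replicate 2 (orange), with exact 95% Poisson intervals as bars. Mir7b and Mir671 reach 2047 and 1764 CPM in replicate 2, above replicate 1, and Mir7-2 and Mir7-1 are higher in replicate 1, at 183 and 109.9 CPM.

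The order Mir7b, Mir671, Mir7-2, Mir7-1 was the same in both libraries. Within the libraries, Mir671 gave 0.668 counts per Mir7b count in replicate 1 and 0.862 in replicate 2. Across the libraries the levels of this top pair overlapped: Mir671 in replicate 2 (1764 CPM) was above Mir7b in replicate 1 (1651 CPM). Mir7-2 and Mir7-1 did not overlap, nor did either overlap the top pair. A sequenced miRNA is read whole, so CPM was not divided by length. Per hairpin base, the levels of Mir7b were 14.9 CPM in replicate 1 against 18.4 in replicate 2, and those of Mir671 were 11.2 and 18.0 CPM. For Mir7-2 they were 1.89 and 1.47 CPM per base, and for Mir7-1 1.02 and 0.803 CPM per base, so the order was the same. All 4 members together took 0.305% of the counts in replicate 1 and 0.404% in replicate 2.

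Mir7b supplied most of the counted miR-7 reads. The 3 miR-7 genes summed to 4385 counts in replicate 1, or 1944 CPM (1887 to 2002), and to 10289 in replicate 2, or 2276 CPM (2232 to 2320.1). Mir7b made up 84.9% of them in replicate 1 (exact 95% binomial interval 83.8 to 86.0) and 89.9% in replicate 2 (89.3 to 90.5). Mir7-2 made up 9.42% (8.57 to 10.3) and 6.26% (5.80 to 6.74), and Mir7-1 made up 5.66% (4.99 to 6.38) and 3.81% (3.45 to 4.20). The intervals of the libraries, which hold counting error only, did not overlap for any of the 3 genes. As parts of 1 whole, the shares are not 3 separate results. Differences beyond counting error were common: with no minimum change, the binomial test described below called 53.5% of all tested genes between the libraries. These are shares of the counted reads, which may leave out reads of miR-7a-5p that fit both Mir7-1 and Mir7-2.

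**Figure D4:**
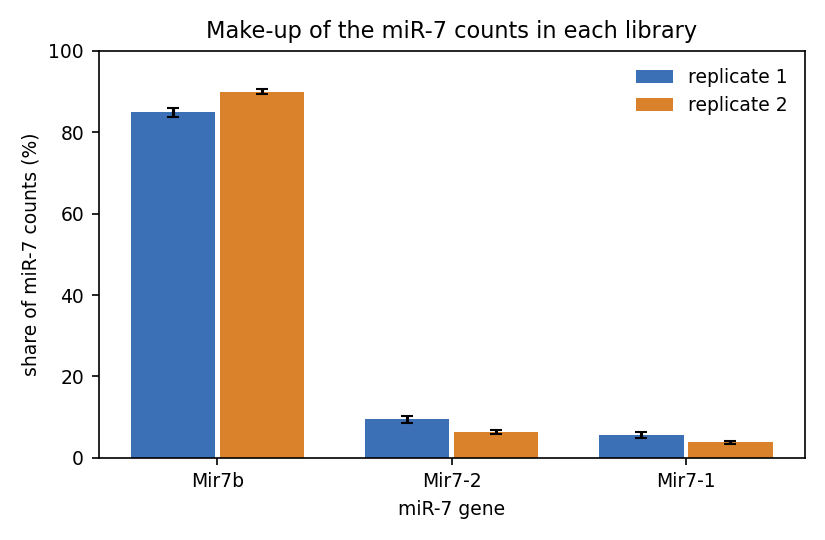
Share of the miR-7 counts (y axis, %) held by each miR-7 gene (x axis) in replicate 1 (blue) and replicate 2 (orange), with exact 95% binomial intervals. Mir7b holds 84.9% in replicate 1 and 89.9% in replicate 2.

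Mir7-1 and Mir7-2 kept their proportion to each other while both shifted against Mir7b. There were 1.67 counts of Mir7-2 per count of Mir7-1 in replicate 1 (1.42 to 1.96, exact 95% binomial limits turned into a ratio) and 1.64 in replicate 2 (1.45 to 1.87). In contrast, there were 5.63 counts of Mir7b per count of the other two in replicate 1 (5.19 to 6.13) and 8.93 in replicate 2 (8.38 to 9.53). Mir671 gave 0.567 counts per miR-7 count in replicate 1 (0.540 to 0.596) and 0.775 in replicate 2 (0.753 to 0.798). Against Mir7b alone it gave 0.668 (0.635 to 0.703) and 0.862 (0.836 to 0.888). These ratios do not depend on how the libraries are scaled. Multimapping reads, which could hold miR-7a-5p, were 1.20 times the counted reads in replicate 1, against 1.29 times in replicate 2, and their part in the shift was not tested.

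None of the 4 members differed by 2-fold between the libraries. An exact conditional binomial test was run on the 495 genes whose mean level reached 1 CPM, with Benjamini-Hochberg adjustment. It compares the reads of these 2 libraries, not conditions. With a minimum change of 2-fold beside an adjusted p below 0.05, it called 87 of the 495 genes (17.6%), 3.84% higher and 13.7% lower in replicate 2, and 0 of the 4 members. With no minimum change it called 265 genes (53.5%) and all 4 members. Mir671 and Mir7b were higher in replicate 2, as were 20.2% of the tested genes by that rule, and Mir7-2 and Mir7-1 were lower, as were 33.3%. All 4 members passed the filter on low levels. A call at any fold was thus the more common outcome for genes of these libraries.

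Mir671 differed most, with a log2 ratio of replicate 2 over replicate 1 of 0.68 (counting interval 0.61 to 0.74), or 1.60-fold higher, at an adjusted p of 2.48e-99 in the exact binomial test. Mir7b had a log2 ratio of 0.31 (0.25 to 0.37), or 1.24-fold higher, at an adjusted p of 1.58e-28 in the same exact test. Mir7-2 and Mir7-1 went the other way: the log2 ratio was -0.36 (-0.54 to -0.18) for Mir7-2 and -0.34 (-0.58 to -0.11) for Mir7-1, with adjusted p of 0.000224 and 0.0082 in the exact test. The median log2 ratio of all tested genes was -0.19, so Mir7-2 and Mir7-1 lay close to it. The median absolute log2 ratio was 0.51, above those of Mir7b, Mir7-2 and Mir7-1 and below that of Mir671. With an error estimated from how far the replicates lie apart, edgeR's exactTest gave each member an adjusted p of 1, with unadjusted p from 0.416 for Mir671 to 0.709 for Mir7b. That error comes from the same libraries that the test compares, so a difference of usual size could hardly pass. The result therefore does not show that the members were equal. With DESeq2 size factors, which raise each log2 ratio by 0.19, the exact binomial test no longer passed for Mir7-1 (-0.15, adjusted p = 0.313) or Mir7-2 (-0.17, adjusted p = 0.115). With edgeR's TMM factors, which raise it by 0.12, it no longer passed for Mir7-1 (-0.22, adjusted p = 0.113).

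**Figure D5:**
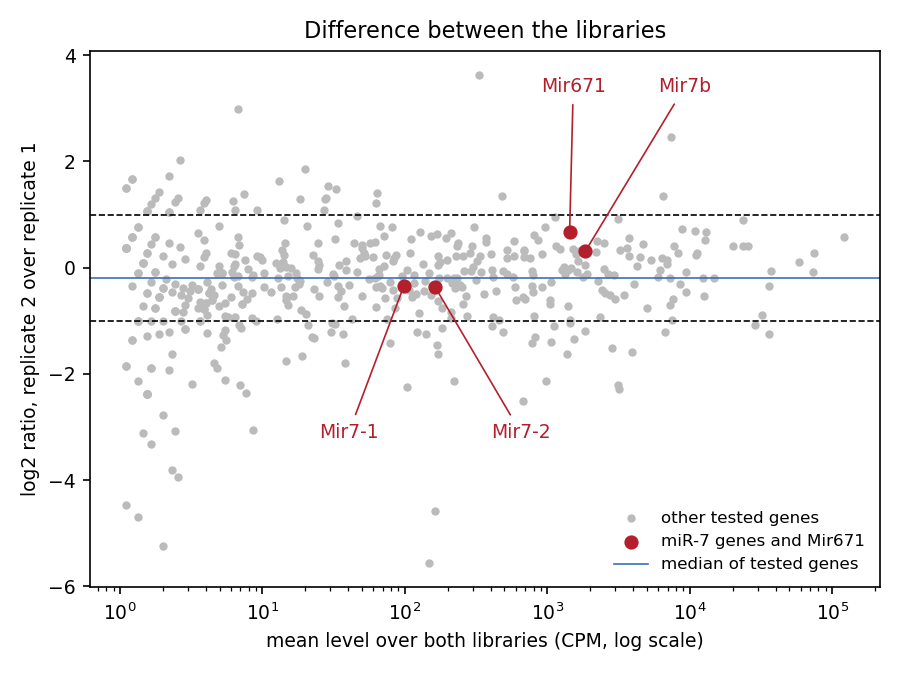
Log2 ratio of replicate 2 over replicate 1 (y axis) against mean level in CPM on a log axis (x axis) for the 495 tested genes (grey) and the 4 members (red). Dashed lines mark 2-fold and the blue line the median of -0.19; all 4 members lie between the dashed lines.

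The strand columns gave the same counts for the members. Each had 0 antisense counts in both libraries and equal counts with and without strand. Of the tested genes, 94.1% had 0 antisense counts and 89.9% had equal counts. Smarcd3, which overlaps Mir671 on the other strand, is not a miRNA gene and has no line in the files.

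The levels of genes with and without a shared arm were set side by side. Of the genes in the files with 2 mature arms in RefSeq, 61 had exactly 1 arm that occurs in another miRNA gene, as Mir7-1 and Mir7-2 do. Of those 61, 41 (67.2%) had a mean of 1 CPM or more. Mir7-2 stood below 17 of them and Mir7-1 below 20. Of 573 genes with no shared arm, as Mir7b and Mir671, 326 (56.9%) had a mean of 1 CPM or more, 48 stood above Mir7b and 56 above Mir671. Of 23 genes with both arms shared, 5 (21.7%) had a mean of 1 CPM or more. The groups hold different genes, with a median level of 20.9 CPM for 1 shared arm, 1.99 for none and 0 for both. Whether a shared arm lowers the counts of a gene was not tested.

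Other neuronal miRNAs gave the scale for these levels. The neuron-enriched list had 23 genes, all in the files, of which 21 were tested, 1 was called higher and 2 lower in replicate 2. Those 3 calls are near the share of 17.6% over all tested genes. Its median log2 ratio was -0.04, against -0.19 for all tested genes. Of the 23, 5 stood above Mir7b and 7 above Mir671 in mean CPM. Mir128-1, Mir138-1 and other genes of the list have an arm that occurs in another miRNA gene, so their levels can be too low. Mir7b and Mir671 have no such arm, so both of these numbers may be too small. Mir132, which responds to neuronal activity, stood at 28639 ± 14580.1 CPM (SD, n = 2), and Mir128-1 at 12708 ± 3213 CPM. The called genes were Mir132, with 38949 CPM in replicate 1 against 18329 in replicate 2, Mir129-1, with 363 and 82.7 CPM, and Mir9-1, with 6.21 and 19.9 CPM. Mir129-1 and Mir9-1 were chosen after their values were seen. Mir383, a neuronal miRNA, was 1 of the 3 genes nearest to Mir7b, with 1478 CPM in replicate 1 against 1839 CPM in replicate 2. Mir1839, which is not on the list, lay nearer still.

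miR-7 is also abundant in endocrine cells such as those of pancreatic islets and the pituitary. The list of 11 neuroendocrine and epithelial miRNAs summed to 5010.1 CPM in replicate 1 against 4751 CPM in replicate 2. Mir335 alone held 3456 CPM of the sum in replicate 1 and 4016 CPM in replicate 2, so most of each sum is that gene. The sum was lower in replicate 2 although Mir335 was higher, so the other genes of the list together were lower. Of these, 5 were called lower in replicate 2 and 0 higher, against 13.7% and 3.84% of all tested genes, and the median log2 ratio was -0.99 against -0.19. Mir335 led the list at 3736 ± 396 CPM (SD, n = 2), followed by Mir375 of endocrine cells at 461 ± 215 CPM. The 5 called genes were Mir429, Mir183, Mir200c, Mir200a and Mir141, chosen after their values were seen. Other genes of the list went differently: the log2 ratio was 0.22 for Mir335, 0.12 for Mir200b and -0.02 for Mir184, the last pair also named after their values were seen. The part of these genes in the members' values was not tested. In bulk tissue, fewer cells of a type and less RNA per cell cannot be told apart.

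Markers of neurons, oligodendrocytes, vessels, leukocytes, choroid plexus and red cells were all detected, with neuronal and endothelial genes at the highest levels. The neuron-enriched list summed to 72911 CPM in replicate 1 against 57826 in replicate 2, though the 3 copies of Mir124a lay between 0 and 2.88 CPM. Reads that fit more than 1 of these copies may be left out of the counts, so their levels can be too low. The endothelial Mir126a stood at 25458 ± 5046 CPM (SD, n = 2), with Mir126b at 0, and the oligodendrocyte genes Mir338 and Mir219a-2 at 3442 ± 845 and 2665 ± 168 CPM. Of choroid plexus markers, Mir204 stood at 917 ± 166 CPM and Mir1298 at 182 ± 66.0 CPM. Of leukocyte markers, Mir150 stood at 788 ± 50.02 CPM and Mir142 at 136 ± 29.0 CPM. Of erythroid markers, Mir451a stood at 88.0 ± 24.1 CPM and Mir144 at 33.1 ± 22.3 CPM. Of these lists other than the neuronal one, the calls were Mir448 of choroid plexus, lower in replicate 2 and chosen after its values were seen, and Mir144, higher. The oligodendrocyte list summed to 6829 CPM in replicate 1 against 5395 in replicate 2, the leukocyte list to 1017 against 927, the endothelial list to 21890.3 against 29026, the choroid plexus list to 1298 against 949 and the erythroid list to 138 against 136. Their part in the members' values was not tested. Replicate 1 held 2255838 sense counts and replicate 2 held 4521208, with 29.0% and 11.2% of all reads unmapped.

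Genes of the most similar level were found by the distance in log2(CPM + 1) over both libraries, which are only 2 points. For Mir7b they were Mir1839, Mir383 and Mir872, at distances of 0.18 to 0.26. For Mir671 they were Mir185, Mir341 and Mir434, at 0.28 to 0.39, so no gene came as close to Mir671 as the nearest came to the other members. For Mir7-2 they were Mir495, Mir27a and Mirlet7a-2, at 0.11 to 0.19, and for Mir7-1 they were Mir377, Mir331 and Mir350, at 0.13 to 0.24.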

How the data were processed

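The authors deposited a file of raw counts for each library, with miRNA genes in lines and columns without strand, sense and antisense. The assembly was mm10 and the annotation M21, per the file headers of the deposited records. Which aligner and counter were used is not given in the sources used here. The 4 rows of totals that name no gene held 69.8% of the reads of replicate 1 and 62.8% of those of replicate 2, and were left out of library sizes and tests. Sense counts were scaled to CPM on their sum over genes. Members and lists were chosen with earlier results of these data known.

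Means and SDs are over 2 libraries. Differences between the libraries were tested with the exact conditional binomial test, two-sided (scipy 1.17.1), with a pseudocount of 0.5 counts in log2 ratios. It was checked on simulated data that held counting error only. The check therefore does not cover the further differences between these libraries. edgeR 4.0.16 gave TMM factors and exactTest, and DESeq2 1.42.0 size factors. edgeR's quasi-likelihood test was not used because 1 group of 2 libraries leaves nothing to contrast. Named genes were the 4 members, genes sharing their 5p seeds or either Mir671 seed, the 2 highest of each list, the 3 nearest genes per member and overlapping genes. Other miRNA genes are marked in the text as later choices. Mir138-1 and the Mir124a copies, of the neuron-enriched list, were also named outside this rule. Of the lists, Mir142hg had no match in the files. CAST alleles that differ from mm10 could lose reads. No sample columns were left unused. Alternatives were scaling, strand column, filter, pseudocount, error model and each library alone.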

Additional observations from a re-analysis of the deposited data

How the results depend on the processing

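Of the alternatives tried, CPM on all reads of the file lowered the mean levels of the members the most, to 629 CPM for Mir7b, 494 for Mir671, 54.1 for Mir7-2 and 32.7 for Mir7-1, since the total then includes reads in no miRNA gene. The number of genes called between the libraries, 87, became 53 when the filter was raised to a mean of 10 CPM. Fewer genes were then tested, so 53 and 87 are not out of the same number, and the drop alone shows no lower share called. With edgeR's exactTest, whose error term is the distance between the replicates, the number became 3. These were Mir26a-1, Mir301 and Mir1247, chosen after their values were seen. No member was called under any of these alternatives. The split of called genes, 19 higher and 68 lower, became 26 and 51 with TMM factors and 27 and 48 with DESeq2 size factors. The log2 ratios of the members kept their sign under all 5 alternatives, from 0.68 to 0.87 for Mir671, 0.31 to 0.50 for Mir7b, -0.36 to -0.17 for Mir7-2 and -0.34 to -0.15 for Mir7-1. The order of the 4 members was the same per hairpin base, without strand and in each library alone. With each library left out in turn, the values are those given per library. No paired analysis was possible because there is only 1 group. Of the 4 members, Mir7-1 and Mir7-2 had the fewest counts, so counting error was largest for them relative to their level. The possible loss of shared miR-7a-5p reads is a separate limit on them.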
